A study of Mus musculus with 32 samples.

Results

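Liver mRNA of 9 liver-enriched transcription factors was compared across diet, treatment with Fc-GLP-1 and partial hepatectomy (PH). The factors were Hnf4a, Foxa1, Foxa2, Foxa3, Cebpa, Cebpb, Onecut1, Nr5a2 and Prox1. They were selected by gene name, which gave 12 probes of the 55681 on the array and 9 of its 34947 gene names, and all 9 were among the 21073 genes tested. The livers came from male C57BL/6 mice, 8 weeks old at the start, in 8 groups of 4 arrays. C mice ate chow for 3 weeks and received saline, and MCD mice ate a diet deficient in methionine and choline, a dietary model of steatohepatitis, and received saline too. C+Fc-GLP-1 mice on chow, and M+Fc-GLP-1 mice on the deficient diet, were injected during the last 2 weeks with Fc-GLP-1, a GLP-1 receptor agonist fused to an antibody Fc part. Liver was taken at surgery, when 70% of the organ was removed, or 2 weeks later from mice that had survived on the same diet and treatment. Part of the labels gives the drug another name, an agonist of both the glucagon receptor and that of GLP-1, dosed daily at 4.4 mg/kg. The names used here are those of the methods, and the array values do not settle which label holds. The labels call the 4 arrays of a group biological replicates and do not say whether a mouse gave liver at both times.

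Hepatocyte identity is held by a small network of DNA-binding proteins that bind each other's genes and many liver enhancers together. HNF4A is the nuclear receptor at its centre, FOXA proteins open chromatin for the others, and C/EBP proteins drive metabolic and acute phase genes. ONECUT1 (HNF6), NR5A2 (LRH-1) and PROX1 act in the same network, on glucose metabolism, bile acid and cholesterol metabolism, and liver cell fate.

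Each level is the log2 signal of a probe minus the 75th percentile of its array, so 0 is the level of a probe brighter than 75% of the spots. The 9 representative probes were well above background on all 32 arrays and none was saturated. Levels of different genes are not set against each other here. Summed signals of 8 hepatocyte markers, all well above background on every array, lay between 4102 and 5284 times the 75th percentile in C mice and between 2992 and 3533 in MCD mice before PH. These livers were analysed whole, so fewer cells of a type and less RNA per cell cannot be told apart. MCD and C arrays before PH lay on one slide, the treated arrays before PH on another and those after PH on another again. Untreated C and MCD arrays after PH each had a slide of their own, so slide cannot be told apart from diet there, nor from Fc-GLP-1 or from time in any comparison of these.

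The threshold was an adjusted p under 0.05 over all genes tested (limma). Of 126 tests of the 9 factors, 7 passed, 2 higher and 5 lower, and they involved 5 factors. MCD against C mice before PH gave 2 of 9 members, both lower, beside 26.4% of all genes. All 9 differences were negative there, with a median of -0.60 on the log2 scale, and 57% of all genes were negative with a median of -0.13. M+Fc-GLP-1 against C+Fc-GLP-1 mice gave 1 member before PH (background 10.4%) and 1 after it (12.8%). MCD against C mice after PH gave 0 members (12.1%), with 1 at an unadjusted p under 0.05.

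With Fc-GLP-1, 1 factor passed. M+Fc-GLP-1 against MCD mice before PH gave 1 member (7.22% of all genes), while the same comparison after PH gave 0 (6.50%, with 1 at an unadjusted p under 0.05). C+Fc-GLP-1 against C mice gave 0 members before PH (2.11%) and 0 after PH (2.06%), with 0 at an unadjusted p under 0.05 in both. From before to after PH, 2 members were lower in C mice (14.0% of all genes) and 0 passed in MCD mice (9.43%, 0 unadjusted), in C+Fc-GLP-1 mice (0.835%, 4 unadjusted) or M+Fc-GLP-1 mice (1.71%, 2 unadjusted). The diet by Fc-GLP-1 interaction before PH gave 0 members (6.15%, 2 unadjusted), as did the diet by time interaction under Fc-GLP-1 (0.0949%, 1 unadjusted).

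**Figure D1:**
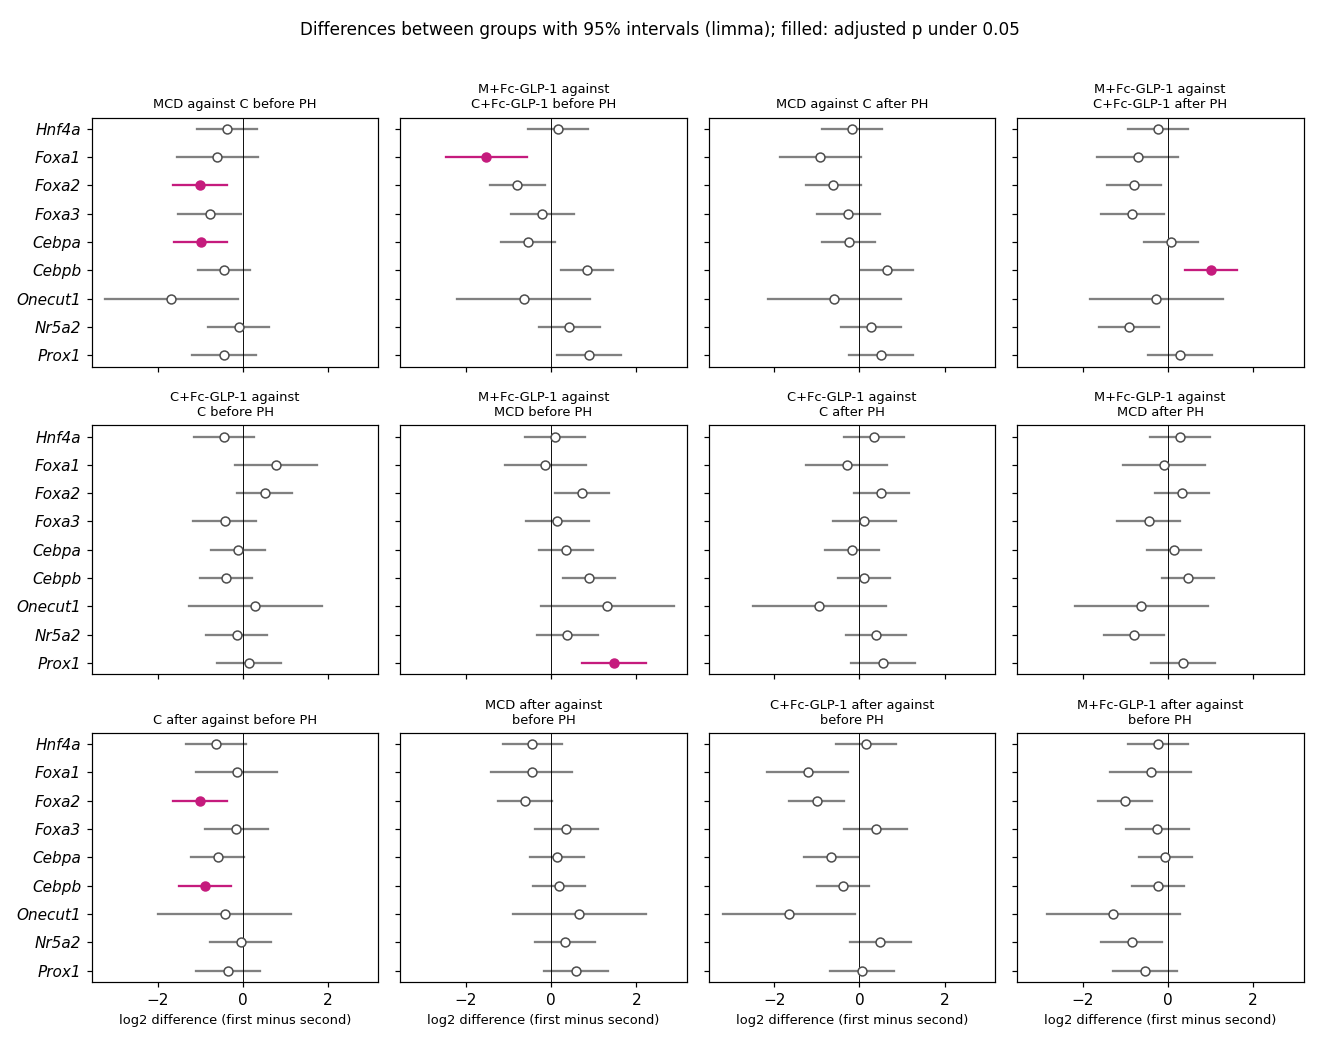
Log2 differences of the 9 members in the 12 comparisons between groups, 1 panel each, with 95% intervals from limma. Filled points passed the adjusted threshold (7 points, in 5 panels), and the widest intervals are those of Onecut1.

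**Figure D2:**
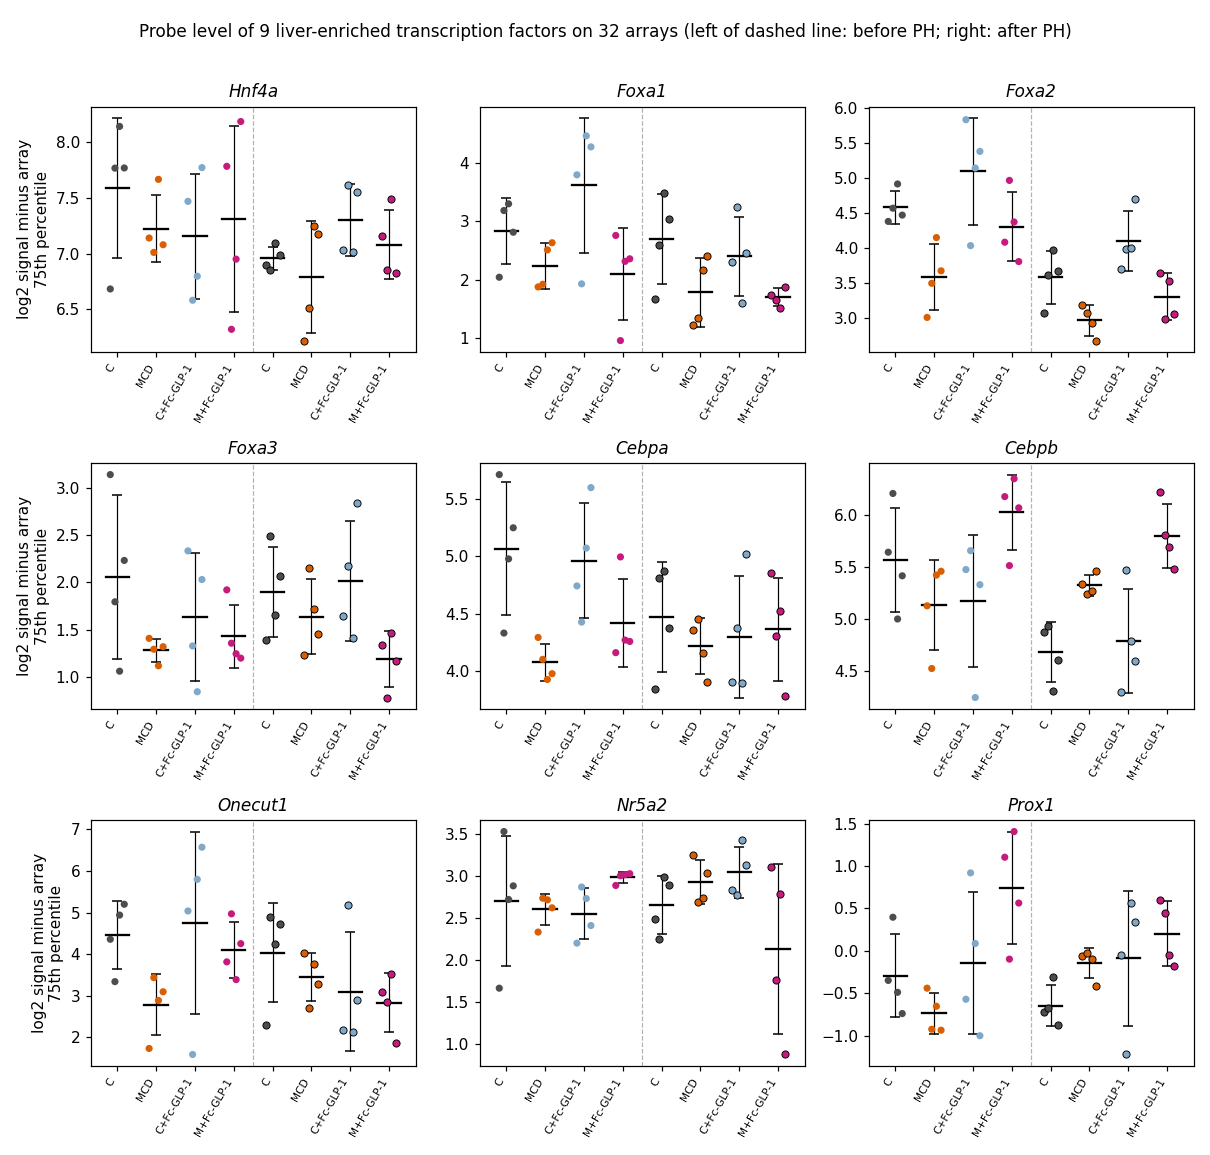
Levels of the 9 members on 32 arrays, 1 panel a gene, as log2 signal minus the array's 75th percentile. Points are arrays, the horizontal line is the group mean and the bars are 1 SD (n = 4). Points right of the dashed line are after PH, and the y axes differ between panels.

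Hnf4a mRNA showed no change that passed in any of the 14 comparisons. In C mice before PH its probe read 6.68, 7.77, 8.14 and 7.77, and in MCD mice 7.14, 7.01, 7.67 and 7.08. The groups overlapped, and the difference was -0.37 (95% interval -1.07 to 0.34, adjusted p = 0.450). M+Fc-GLP-1 mice before PH spread as widely within the group, at 7.78, 6.32, 6.95 and 8.19. Over the 8 groups the means ran from 6.79 in MCD mice after PH to 7.59 in C mice before PH, and none of the 7 steps between neighbouring groups in this order exceeded the pooled SD within groups of 0.50.

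The opposite strand of the same locus responded to the diet. Hnf4aos, a long noncoding RNA read from the opposite strand, shares 34911 bases with the span of Hnf4a on chromosome 2 (chr2:163493804-163541721 against chr2:163506811-163572907, GRCm38). RefSeq gives Hnf4a 2 starts, 40298 bases apart, and the downstream one is the promoter known to serve adult liver. Hnf4aos starts between them, 5434 bases before that promoter. The 250 bases before each of these starts are shown because the 2 strands of the locus differed in their response (RefSeq, GRCm38.p6; chr2:163506607-163506856 on the plus strand for the upstream Hnf4a start, chr2:163546905-163547154 on the plus strand for the downstream one, chr2:163541722-163541971 on the minus strand for Hnf4aos).
Hnf4a upstream start: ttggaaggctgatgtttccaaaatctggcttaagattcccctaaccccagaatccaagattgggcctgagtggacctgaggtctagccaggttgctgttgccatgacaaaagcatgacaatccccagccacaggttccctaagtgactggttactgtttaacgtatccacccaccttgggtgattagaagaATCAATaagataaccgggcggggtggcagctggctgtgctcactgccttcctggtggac
Hnf4a downstream start: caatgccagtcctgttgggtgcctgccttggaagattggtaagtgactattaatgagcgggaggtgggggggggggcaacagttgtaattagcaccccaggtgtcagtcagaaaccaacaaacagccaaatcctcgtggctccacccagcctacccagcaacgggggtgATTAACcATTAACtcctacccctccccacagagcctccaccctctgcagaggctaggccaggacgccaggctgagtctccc
Hnf4aos: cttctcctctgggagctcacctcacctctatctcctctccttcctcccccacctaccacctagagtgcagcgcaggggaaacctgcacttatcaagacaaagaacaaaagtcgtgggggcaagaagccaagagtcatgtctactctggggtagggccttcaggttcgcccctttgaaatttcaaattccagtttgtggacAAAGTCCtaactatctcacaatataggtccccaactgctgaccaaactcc

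Capitals mark matches to short core motifs, searched on both strands without regard to overlap: AAAGTCC for HNF4, GTTAAT for HNF1, TGTTTAC for FOXA, ATTGAT for ONECUT, TTGCNNAA for C/EBP and CAAGGTC for NR5A2. The upstream Hnf4a start had 1 ONECUT match, 59 to 54 bases before it, a motif present in 6.72% of 32851 RefSeq promoter windows of this length. The downstream start had 2 HNF1 matches, 81 to 76 and 74 to 69 bases before it (motif in 6.43% of windows). The Hnf4aos start had 1 HNF4 match, 50 to 44 bases before it (3.58% of windows). FOXA, C/EBP and NR5A2 motifs are found in 3.17%, 9.56% and 3.32% of windows and matched none of these 3. A match describes the letters and shows no binding.

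Hnf4aos read 2.52, 3.51, 3.29 and 2.81 in C mice before PH and -3.84, -2.67, -1.33 and -4.97 in MCD mice. It fell by 6.24 (standard error 0.73, adjusted p = 7.87e-07), and 3 of the 4 MCD arrays were well above background. In treated mice before PH it read 1.89, 2.29, 1.40 and 1.24 on chow and -0.80, -3.09, -3.56 and -1.48 on the MCD diet, where 3 of 4 arrays were well above background, a fall of 3.94 (adjusted p = 0.000534). After PH it fell by 5.64 in MCD against C mice (adjusted p = 4.47e-06), with 2 of 4 MCD arrays well above background. In M+Fc-GLP-1 against C+Fc-GLP-1 mice it fell by 4.602 (adjusted p = 6.49e-05). No array of an MCD-fed group reached any array of the chow-fed group of the same treatment and time, whereas the Hnf4a groups overlapped in all 4 comparisons. All 4 falls passed under each alternative and with each array left out. Between diets before PH, 15.5% of all genes were called lower in untreated and 5.01% in treated mice. After PH these shares were 6.08% and 6.62%. The share of all genes whose groups did not overlap is not given here. The Hnf4aos probe lies on the minus strand and the Hnf4a probe on the plus strand, with starts 78947 bases apart on mm9.

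**Figure D3:**
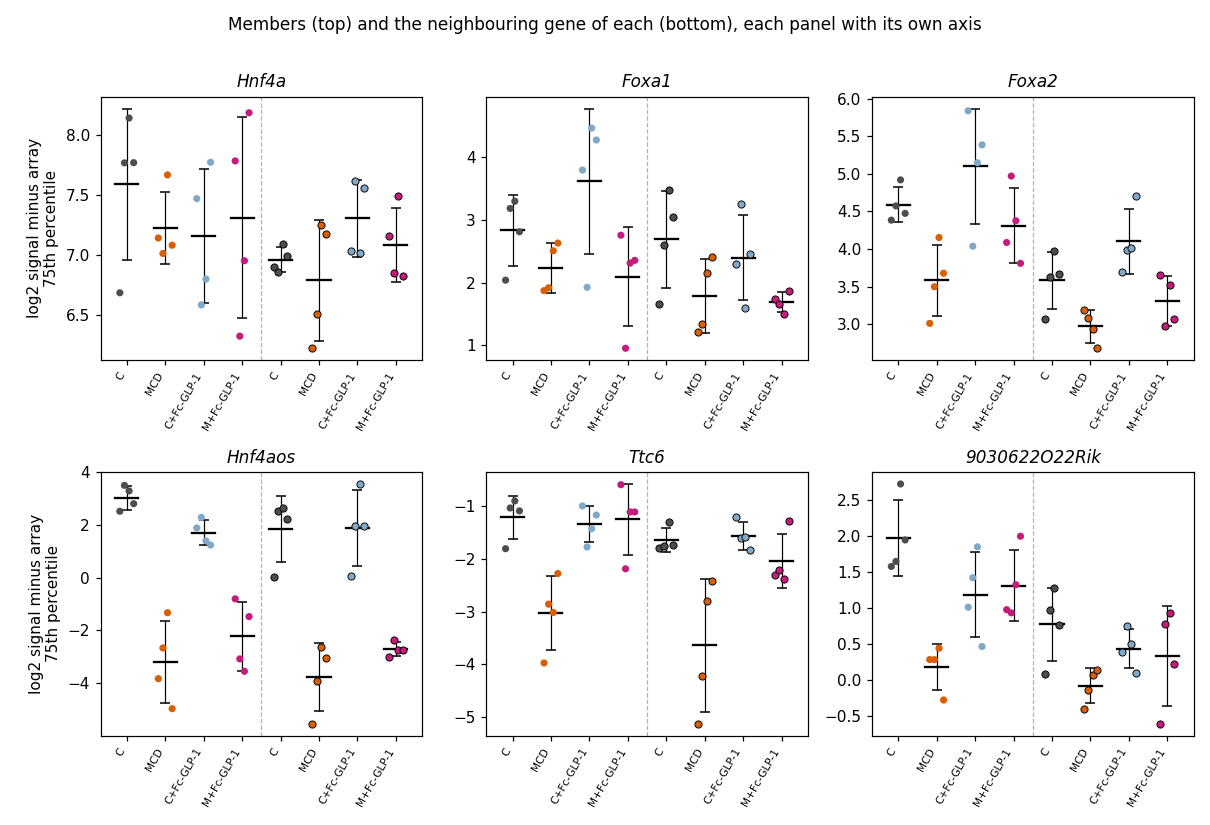
Levels of Hnf4a, Foxa1 and Foxa2 (top row) and of Hnf4aos, Ttc6 and 9030622O22Rik (bottom row, the neighbour of each) by group, as log2 signal minus the array's 75th percentile. Points are arrays, lines are means and bars are 1 SD (n = 4). All Hnf4aos points of MCD-fed mice lie below 0 and all those of chow-fed mice above it, while the Hnf4a points overlap.

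Of the FOXA genes, Foxa2 fell past the threshold on the MCD diet in untreated mice and Foxa1 in treated mice, both before PH. Foxa3 passed in no comparison. The diet by Fc-GLP-1 interaction was 0.21 for Foxa2 and -0.92 for Foxa1 and passed for neither, so no difference between treated and untreated mice was shown. Foxa2 read 4.38, 4.57, 4.92 and 4.47 in C mice before PH and 3.01, 3.50, 4.15 and 3.68 in MCD mice. Every MCD array lay below every C array, and Foxa2 fell by 1.00 (standard error 0.31, adjusted p = 0.0188), a 2-fold change. It did not pass without C replicate 3 (adjusted p = 0.0566) or MCD replicate 1 (0.0784), and passed in 4 of 8 other settings, with a second probe that starts 55 bases away at -0.34 (adjusted p = 0.590). In the other 3 comparisons between diets Foxa2 differed by -0.79 in treated mice before PH (adjusted p = 0.106), -0.61 in untreated mice after PH (0.220) and -0.79 in treated mice after PH (0.0986). Untreated mice after PH passed with normexp and quantile normalization and with the authors' values (-0.86 in both, adjusted p = 0.0443 and 0.0465). Treated mice before PH passed with median centring (-1.05, adjusted p = 0.0228) and without C+Fc-GLP-1 replicate 2 or M+Fc-GLP-1 replicate 2 (-1.15, 0.0156, and -1.01, 0.0443). Fc-GLP-1 against saline before PH gave Foxa2 differences of 0.51 on chow (adjusted p = 0.389) and 0.73 on the MCD diet (0.152), which passed after normexp and quantile normalization (1.11 and 1.06, adjusted p = 0.00996 and 0.0149) and with the authors' values (adjusted p = 0.0161 and 0.0204).

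Foxa2 was also the member with the widest span of group means, from 2.97 in MCD mice after PH to 5.10 in C+Fc-GLP-1 mice before PH. In C mice after PH it read 3.07, 3.62, 3.98 and 3.67, all below the 4 arrays of C mice before PH. The fall was 1.00 (standard error 0.31, adjusted p = 0.0321). It passed in 1 of 8 other settings and in 3 of 8 fits with an array left out. Without C replicate 2 or 3 before PH the adjusted p was 0.0541 and 0.0860, and without C replicate 1, 2 or 4 after PH it was 0.125, 0.0552 and 0.0512. With the authors' values, whose 75th percentile lay higher after PH, the difference was 0.45, beside a median of 0.53 over all genes. In C+Fc-GLP-1 mice the mean was 5.10 before and 4.10 after PH (interval of the difference -1.64 to -0.36, adjusted p = 0.114), and in M+Fc-GLP-1 mice 4.31 and 3.31 (-1.65 to -0.36, 0.0938). Both passed with normexp and quantile normalization (-0.92, adjusted p = 0.0449, and -1.12, 0.0250), and the former without C+Fc-GLP-1 replicate 2 before PH (-1.36, adjusted p = 0.0376). Hepatocyte marker sums in C mice, given before PH above, ran from 2129 to 4262 after it, and those of 6 stellate cell markers, 5 of them well above background on every array, from 6.08 to 10.6 before and 13.9 to 71.0 after PH. Their part in the falls of Foxa2 and Cebpb in C mice was not tested. Neighbouring groups in the order of Foxa2 levels differed by more than the pooled SD of 0.45 at 2 of 7 steps.

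Foxa1 read 3.80, 1.93, 4.47 and 4.28 in C+Fc-GLP-1 mice before PH and 2.76, 0.95, 2.31 and 2.36 in M+Fc-GLP-1 mice. Replicate 2 was the lowest array of each group, and the groups overlapped only through that of C+Fc-GLP-1. Foxa1 fell by 1.52 on the MCD diet (standard error 0.47, adjusted p = 0.0338), in a comparison within one slide. The call held in 4 of 8 other settings and was lost in 6 of 8 fits with an array left out, with adjusted p of 0.0676, 0.126 and 0.106 without C+Fc-GLP-1 replicate 1, 3 or 4 and 0.124, 0.0522 and 0.0515 without M+Fc-GLP-1 replicate 2, 3 or 4. In untreated mice Foxa1 read 2.04, 3.19, 3.30 and 2.81 on chow and 1.87, 1.92, 2.51 and 2.63 on the MCD diet before PH, a difference of -0.60 (adjusted p = 0.352). After PH the differences between diets were -0.91 (adjusted p = 0.219) and -0.71 under Fc-GLP-1 (0.372). C+Fc-GLP-1 mice after against before PH passed only without replicate 2 before PH (-1.78, adjusted p = 0.0494, against -1.22 and 0.202 with all arrays).

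Foxa3 read 3.14, 1.79, 1.06 and 2.23 in C mice before PH and 1.41, 1.29, 1.12 and 1.32 in MCD mice, so that the C arrays spanned the MCD arrays. The difference was -0.77 (95% interval -1.51 to -0.03, adjusted p = 0.113), and it passed without C replicate 3, the lowest C array (-1.10, adjusted p = 0.0267). In treated mice after PH the difference between diets was -0.83 (adjusted p = 0.139).

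Of 4 tested genes next to the FOXA genes, 3 fell with the MCD diet in untreated mice before PH (15.5% of all genes were called lower). None passed between diets in treated mice (10.4% of all genes before PH and 12.8% after it). Ttc6, whose span overlaps that of Foxa1 on chromosome 12, read -1.81, -1.04, -0.90 and -1.09 in C mice and -3.97, -2.86, -3.02 and -2.28 in MCD mice before PH. The groups did not overlap, and Ttc6 fell by 1.82 (adjusted p = 0.00237). It also fell by 2.00 in MCD against C mice after PH (0.00232), where 2 of 4 MCD arrays were well above background. In treated mice Ttc6 differed between diets by 0.09 before PH (0.923) and -0.48 after it (0.536). Its diet by Fc-GLP-1 interaction before PH was 1.91 (0.0540) and did not pass. M+Fc-GLP-1 mice exceeded MCD mice by 1.78 before PH (0.0123), a call lost without MCD replicate 1 (0.0659), and by 1.60 after PH (0.0232), a call lost without MCD replicate 1 or 2 (0.122 and 0.0861) or M+Fc-GLP-1 replicate 4 (0.0730).

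9030622O22Rik, a long noncoding RNA 2364 bases from Foxa2, read 1.58, 1.65, 2.72 and 1.94 in C mice and 0.28, 0.28, 0.44 and -0.28 in MCD mice before PH. No MCD array reached a C array, and it fell by 1.79 (adjusted p = 0.000263), as did Foxa2 in the same comparison. In treated mice before PH it differed by 0.12 between diets (0.865), and the diet by Fc-GLP-1 interaction was 1.91 (0.0186). The interaction passed in all 16 fits with an array left out and in 6 of 8 other settings, but not with median centring or the authors' values (adjusted p up to 0.117). Against MCD mice M+Fc-GLP-1 mice were higher by 1.12 before PH (0.0389), which was lost without any one of MCD replicates 1 to 4 (adjusted p from 0.0541 to 0.108) and without M+Fc-GLP-1 replicate 3 or 4 (0.0829 and 0.124). In C mice after against before PH it fell by 1.20 (0.0166), a call lost without C replicate 3 before PH (0.0702) or C replicate 1 after PH (0.0828). Near Foxa3, Irf2bp1 fell by 1.49 in C mice after against before PH (0.00691). Sympk fell by 0.61 in MCD against C mice before PH (0.0200), and did not pass without C replicate 2 (0.0590), MCD replicate 1 (0.0681) or MCD replicate 2 (0.0584). The diet by Fc-GLP-1 interaction of Sympk was 0.60 (0.183) and did not pass.

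Of the 2 C/EBP genes, Cebpa fell and Cebpb rose on the MCD diet, in different comparisons. Cebpa, which supports metabolic genes and restrains hepatocyte division, read 5.71, 4.33, 4.98 and 5.25 in C mice before PH and 4.29, 4.10, 3.93 and 3.98 in MCD mice. The groups did not overlap, although the highest MCD array came within 0.04 of the lowest C array. Cebpa fell by 0.99 (standard error 0.31, adjusted p = 0.0179). This call held in 7 of 8 other settings and in 7 of 8 fits with an array left out. It was lost with median centring (-0.62, adjusted p = 0.185) and without C replicate 1 (-0.78, 0.0822). In treated mice before PH the difference was -0.54 (adjusted p = 0.285), after PH it was -0.26 in untreated mice (0.656) and 0.07 in treated mice (0.931).

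Cebpb, which drives acute phase genes and is induced when liver regenerates, was higher on the MCD diet in treated mice. After PH it read 4.30, 5.48, 4.79 and 4.59 in C+Fc-GLP-1 mice and 6.22, 5.81, 5.70 and 5.49 in M+Fc-GLP-1 mice, the highest chow array lying just under the lowest MCD array. It rose by 1.01 (standard error 0.30, adjusted p = 0.0222), a 2.02-fold change within one slide. The call held in 5 of 8 other settings and was lost without C+Fc-GLP-1 replicate 1 or 4 (adjusted p = 0.0837 and 0.0633) or M+Fc-GLP-1 replicate 1 (0.0821). Before PH Cebpb read 5.48, 5.66, 4.25 and 5.33 in C+Fc-GLP-1 mice and 6.18, 5.51, 6.35 and 6.07 in M+Fc-GLP-1 mice, a difference of 0.85 (adjusted p = 0.0655) that passed without C+Fc-GLP-1 replicate 2 (1.01, 0.0497) or M+Fc-GLP-1 replicate 2 (1.02, 0.0354).

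In untreated mice the Cebpb difference between diets was -0.43 before PH (95% interval -1.04 to 0.18) and 0.64 after it (0.03 to 1.25, adjusted p = 0.170), when every MCD array lay above every C array. The diet by Fc-GLP-1 interaction was 1.28 (95% interval 0.42 to 2.14, adjusted p = 0.0638) and passed without C replicate 3 (1.47, 0.0388) or M+Fc-GLP-1 replicate 2 (1.45, 0.0389). Against MCD mice before PH (5.13, 4.53, 5.42 and 5.46), every M+Fc-GLP-1 array was higher, by 0.89 on average (adjusted p = 0.0627), and the difference passed in 3 of 8 other settings and without M+Fc-GLP-1 replicate 2 (1.06, 0.0354). In C mice Cebpb read 5.64, 6.21, 5.002 and 5.42 before PH and 4.88, 4.94, 4.31 and 4.61 after it, and fell by 0.88 (adjusted p = 0.0457). That call passed in 3 of 8 other settings and only without C replicate 3 before PH among the 8 fits with an array left out, the others giving adjusted p from 0.0522 without C replicate 2 after PH to 0.151 without C replicate 2 before PH.

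Macrophages and neutrophils also express C/EBP genes. Of 6 macrophage markers, all 6 were well above background on every array, and their summed signal ran from 46.0 to 74.6 in C and 95.1 to 249 in MCD mice before PH, 57.8 to 105 in C+Fc-GLP-1 and 32.2 to 90.2 in M+Fc-GLP-1 mice. After PH it ran from 86.3 to 439 in C, 172 to 365 in MCD, 128 to 238 in C+Fc-GLP-1 and 124 to 205 in M+Fc-GLP-1 mice. Of 6 neutrophil markers, 1 was well above background on every array. Their sum was 2.17 to 2.64 in C and 3.96 to 21.7 in MCD mice before PH, 1.81 to 6.45 in C+Fc-GLP-1 and 1.47 to 2.86 in M+Fc-GLP-1 mice, and after PH 7.25 to 32.5 in C, 50.8 to 182 in MCD, 6.70 to 48.2 in C+Fc-GLP-1 and 6.54 to 41.8 in M+Fc-GLP-1 mice. Before PH these sums were higher with the MCD diet in untreated mice. They overlapped between the treated groups both before and after PH, and were higher after than before PH in C mice. Their part in the C/EBP results was not tested.

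Onecut1, which acts on glucose metabolism and on bile duct formation, varied most within groups. In C mice before PH it read 4.36, 3.34, 4.94 and 5.20 and in MCD mice 1.73, 3.43, 2.89 and 3.09. The highest MCD array overlapped the lowest C array, and the difference was -1.67 (95% interval -3.23 to -0.11, adjusted p = 0.103). It passed when only these 8 arrays were fitted (adjusted p = 0.0238) and when the 2 Onecut1 probes were averaged (-2.33, 0.0241). The second probe, placed on the RefSeq transcript while the brighter one was placed on an Ensembl transcript, fell by 2.99 (adjusted p = 0.00735, adjusted over all probes). Its C arrays ran from -2.60 to 1.48 and its MCD arrays from -4.03 to -2.11, so these overlapped as well.

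In C+Fc-GLP-1 mice before PH Onecut1 read 5.04, 1.58, 5.80 and 6.57, with replicate 2 far below the others. The SD of 2.20 there was the widest of any member in any group. C+Fc-GLP-1 mice after PH read 2.16, 5.19, 2.13 and 2.90, a difference of -1.65 from before (adjusted p = 0.294) that passed without replicate 2 before PH (-2.71, 0.0494). None of the 7 steps in the order of Onecut1 group means exceeded the pooled SD of 1.17. The 2 probes moved together over the 32 arrays, with a correlation of 0.89 between their deviations from the group means. Bile duct cells also use Onecut1, and the summed signal of 6 cholangiocyte markers, 2 of them well above background on every array, was 4.37 to 7.69 in C and 5.39 to 7.16 in MCD mice before PH. After PH the highest array reached 52.0 in C, 70.7 in C+Fc-GLP-1, 61.5 in M+Fc-GLP-1 and 3.96 in MCD mice. The group medians were 6.80, 11.1, 5.72 and 3.03 in the same order. Their part in the Onecut1 values was not tested.

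Prox1, a homeobox factor that limits bile acid and lipid genes, was highest in M+Fc-GLP-1 mice before PH. It read 1.10, -0.10, 1.41 and 0.56 there, -0.44, -0.92, -0.65 and -0.94 in MCD mice, and -0.57, 0.92, 0.09 and -1.0004 in C+Fc-GLP-1 mice. Every M+Fc-GLP-1 array exceeded every MCD array, and Prox1 rose by 1.48 (standard error 0.37, adjusted p = 0.0151), a 2.79-fold change between arrays of 2 slides. The call held in 5 of 8 other settings, with adjusted p up to 0.178 with the authors' values, and in 7 of 8 fits with an array left out (0.0658 without M+Fc-GLP-1 replicate 3). Against C+Fc-GLP-1 mice the difference was 0.88 (adjusted p = 0.124), and it passed without C+Fc-GLP-1 replicate 2 (1.24, 0.0341) or M+Fc-GLP-1 replicate 2 (1.17, 0.0455). The diet by Fc-GLP-1 interaction was 1.33 (95% interval 0.26 to 2.39, adjusted p = 0.118) and passed without C+Fc-GLP-1 replicate 2 (1.68, 0.0492). Lymphatic endothelium also uses Prox1, and the summed signal of 4 of its 5 listed markers on the array was 0.937 to 1.54 in M+Fc-GLP-1, 0.653 to 1.06 in MCD and 0.516 to 1.21 in C+Fc-GLP-1 mice before PH. Its part in the Prox1 rise was not tested.

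Nr5a2, a nuclear receptor that supports bile acid synthesis, passed in no comparison, and its 2 probes did not move together. The brighter probe read 2.83, 2.76, 3.43 and 3.13 in C+Fc-GLP-1 mice and 3.098, 1.76, 2.79 and 0.88 in M+Fc-GLP-1 mice after PH, a difference of -0.91 (95% interval -1.62 to -0.20, adjusted p = 0.0871). It passed without M+Fc-GLP-1 replicate 1 (-1.23, 0.0216) or 3 (-1.13, 0.0467), the higher arrays of that group, while the second probe differed by -0.15. Before PH M+Fc-GLP-1 mice read 2.88, 3.00, 3.01 and 3.02, the narrowest spread of any member in any group (SD 0.06), all above the C+Fc-GLP-1 arrays by the brighter probe (0.43, adjusted p = 0.480), whereas the second probe gave -0.93 (adjusted p = 0.0610). The deviations of the 2 probes correlated at 0.19 over 32 arrays, and the probes had the same sign in 5 of 12 comparisons. For Foxa2 these values were 0.60 and 12 of 12, and for Onecut1 10 of 12 had the same sign. Exocrine pancreas also uses Nr5a2, Onecut1, Foxa2 and Prox1. Of 6 pancreas markers, 1 was well above background on every array and 1 (Pnlip) on none, and their sum was highest in C mice before PH (1.67 to 6.70) and lowest in MCD mice before PH (0.607 to 0.827). Their part in the values of these factors was not tested.

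Within groups, some members varied together. Over 32 arrays the deviations of Onecut1 and Prox1 from the group mean correlated at -0.71, the most negative of the 36 pairs. Hnf4a and Foxa1 had the most positive value, 0.65, and Onecut1 correlated with Cebpa at 0.58, with Foxa2 at 0.57 and with Foxa1 at 0.56. C+Fc-GLP-1 replicate 2 before PH, low in Onecut1 (-3.17) and Foxa1 and high in Prox1 (1.06), is the array at the far left of the Onecut1 plot. At its far right is C+Fc-GLP-1 replicate 2 after PH, at 2.09 for Onecut1 and -1.13 for Prox1. The correlation was not computed without these arrays. The points share arrays and their centring, so these values describe the arrays and carry no test.

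**Figure D4:**
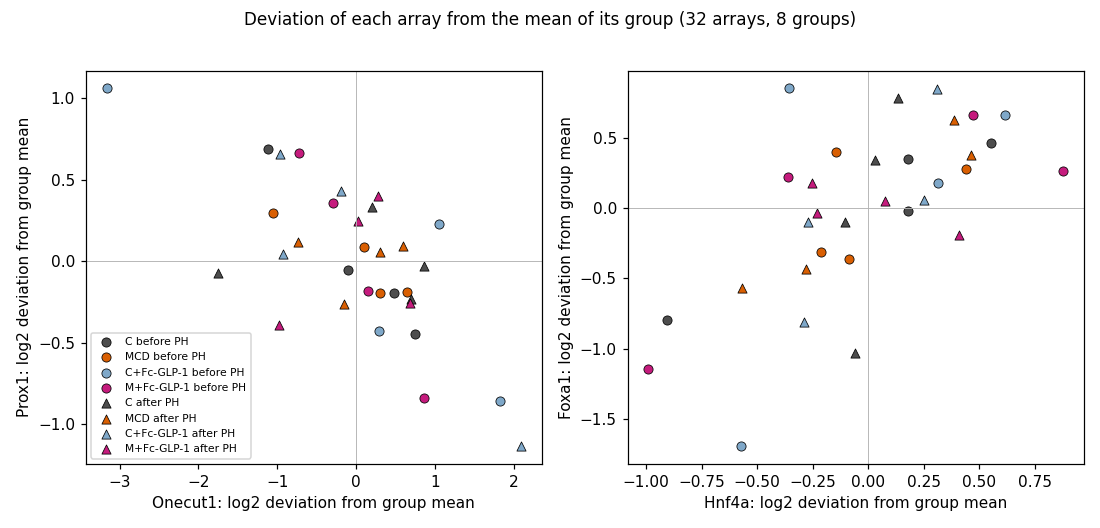
Deviation of each of 32 arrays from the mean of its group, in log2 units, for Onecut1 against Prox1 (left) and Hnf4a against Foxa1 (right). Circles are before PH and triangles after PH. Onecut1 and Prox1 run in opposite directions (r = -0.71) and Hnf4a and Foxa1 in the same direction (r = 0.65).

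Other regulators share sites, dimers or promoters with the 9 factors. Of 30 listed, 29 were tested (Atf5 did not pass the filters). In MCD against C mice before PH 3 rose (10.9% of all genes) and 4 fell (15.5%), with a list median of -0.09. Ddit3, a C/EBP family member of the stress response, rose by 2.29 (adjusted p = 6.58e-05) and Cebpd by 1.95. Nr0b2, the corepressor SHP, fell by 1.76 (adjusted p = 0.00103), and Gata4, a zinc finger factor of early liver, by 1.67. In treated mice before PH 9 rose (5.35%) and 3 fell (5.01%), with a list median of 0.37. Largest were Dbp, up by 4.19, Tef, up by 2.98, and Hlf, up by 1.70, the clock-controlled PAR bZIP factors, and Nfil3, their repressor, fell by 2.16.

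After PH some regulators of this list passed between diets too, and their counts were not tested against the shares of all genes. In untreated mice 5 rose (6.04%) and 2 fell (6.08%), among them Dbp, up by 3.84, Tef, up by 1.84, and Nfil3, which fell by 1.25 and passed in 1 of 8 fits with an array left out. In treated mice 5 rose (6.20%) and 2 fell (6.62%), with Dbp up by 4.18, Hlf up by 1.92, Ppargc1a up by 1.35 (not without M+Fc-GLP-1 replicate 2), while Nfil3 fell by 2.18. With Fc-GLP-1 on chow 0 rose (0.978%) and 1, Dbp, fell (1.13%), by 2.96, in 4 of 8 fits with an array left out. Under the MCD diet before PH 3 rose (4.43%) and 1 fell (2.79%), with Ppargc1a up by 1.68 and Ddit3, which fell by 1.68. In C mice after against before PH 0 rose (6.09%) and 6 fell (7.87%), including Dbp by 3.41, Tef by 1.68 and, in 6 of 8 fits with an array left out, Nr1i3 by 1.27.

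Some known target genes of the factors passed in each direction, and their counts were not tested against the shares of all genes. Of 50 listed targets, several in more than 1 list, 48 were tested (Pck1 and Igfbp1 did not pass the filters). In MCD against C mice before PH 3 rose (10.9% of all genes) and 11 fell (15.5%), with a median of -0.42. Afp, the fetal albumin relative, rose by 4.34 (adjusted p = 6.35e-10), Apoa4 by 3.45 and Gys2 by 1.10, while F7 of coagulation fell by 1.42 and Otc of the urea cycle by 1.39. With an array left out, Gys2 passed in 2 of 8 fits and the others named here in all 8. In treated mice before PH 3 rose (5.35%) and 5 fell (5.01%), with Apoa4 up by 2.42, Afp up by 1.84 and Cpt1a up by 1.37. Slc10a2 fell by 1.74 there.

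By list, 5 of 19 HNF4A targets, 2 of 10 FOXA targets, 2 of 13 C/EBP targets, 3 of 14 NR5A2 targets and 2 of 6 ONECUT1 targets fell in MCD against C mice before PH, with list medians of -0.45, -0.31, -0.50, -0.58 and -0.90 beside -0.13 over all genes, of which 15.5% were called lower. Rises numbered 1, 1, 1, 0 and 0 (10.9% of all genes). After PH in treated mice 7 of 48 targets rose (6.20% of all genes) and 6 fell (6.62%). Apoa4 rose by 3.20, Afp by 3.099, Pklr by 1.57 and Cpt1a by 1.30, and Otc fell by 2.64, Slc10a2 by 2.21 and F11 by 1.55. In untreated mice after PH 3 rose (6.04%) and 3 fell (6.08%), with Cyp7a1, the rate-limiting enzyme of bile acid synthesis, among the falls (it fell by 1.94, and passed in 4 of 8 fits with an array left out). M+Fc-GLP-1 against MCD mice before PH had 0 rises (4.43%) and 2 falls (2.79%), of Afp (-1.39, in 7 of 8 such fits) and Orm1 (-1.23, in 2 of 8), and C mice after against before PH had 1 rise (6.09%) and 8 falls (7.87%), the latter led by Abcg8, which fell by 1.65 and passed in 6 of 8.

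**Figure D5:**
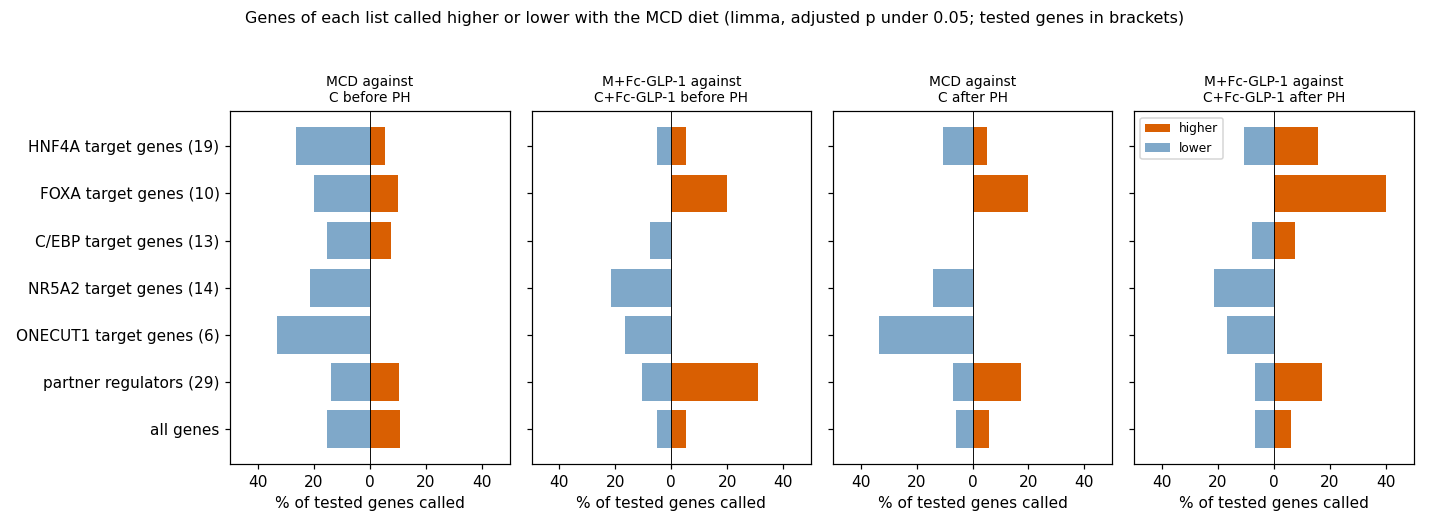
Share of the tested genes of each list called higher (right) or lower (left) with the MCD diet in 4 comparisons, in percent, with the share of all 21073 genes in the bottom row. Brackets give the tested genes of each list. Lists hold between 6 and 29 tested genes, so 1 gene moves a bar by up to 16.7 percentage points.

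Genes whose level over the 32 arrays was most like a member's, by Pearson's r among all tested genes other than members, were Csnk2b (0.85) and Cfap97 (0.81) for Hnf4a and Ikzf4 (0.83) and Fbxo30 (0.79) for Foxa1. For Foxa2 they were Fam160a1 (0.86) and Gprin3 (0.85), and for Foxa3 Surf1 (0.74) and an unnamed transcribed locus. For Cebpa they were Cbs (0.81) and Tecr (0.79), for Cebpb Synpo2l (0.82) and another unnamed locus, and for Onecut1 Cish (0.80) and Zfp592 (0.76). Stard4 (0.74) and Bmp8a (0.74) were closest to Nr5a2, and D4Ertd681e (0.77) and Rusc2 (0.75) to Prox1. The 32 arrays share slides and centring, so r describes likeness on these arrays.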

How the data were processed

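RNA of 32 liver samples was hybridised to Agilent 1-colour arrays. Per the file headers, the deposited intensity is the processed signal of Feature Extraction, background-subtracted by the scanner software. The authors also deposited log2 values of the same arrays, used here as an alternative, whose 75th percentile lay between 8.36 and 8.40 before PH and between 8.97 and 9.07 after it. Each array's log2 processed signal was centred on its 75th percentile, spots marked as outliers were left out, and spots of a probe were averaged. A probe was kept when well above background on all 4 arrays of a group and not lost to outlier marks on any array (28937 of 55681 probes, 426 lost to such marks), and the brightest kept probe stood for a gene. Between 36.3% and 69.2% of probes on an array were well above background, and precision is limited by 4 arrays a group.

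limma 3.58.1 (R 4.3.3) was fitted to all 8 groups, with Benjamini-Hochberg adjustment over 21073 genes and a threshold of 0.05. The fit was also run on simulated arrays with known changes, independent noise and no slide effect, which does not bear on slide differences. Alternatives were normexp with an offset of 50 and quantile normalization, median centring, the authors' log2 values, a replicate block, all probes without the filter, averaging the probes of a gene, the compared arrays alone, and each array left out. A percentile over probes above background on all arrays, and a fit of every kept probe on its own, were added after seeing the data. The members and lists were chosen with earlier results of these data known. Named were all members, the 4 largest rises and 4 largest falls past the threshold per list and comparison (a selection is printed), tested genes within 10 kb of a member, and for each member the 2 genes of highest correlation. Gene names, positions and promoters are those of RefSeq on GRCm38.p6, and probe positions are those of the array's annotation on mm9.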

Additional observations from a re-analysis of the deposited data

Results flagged for a closer look

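In M+Fc-GLP-1 mice before PH, Cebpa of replicate 2 read 4.996 while the other arrays read 4.16 to 4.27. In MCD mice after PH, Prox1 of replicate 4 read -0.41 while the others read -0.09 to -0.03. Each of these arrays stood apart from its group by more than Dixon's 95% limit (gap over range 0.868 and 0.836), which happened in 2 of 72 groups of 4 arrays, and chance gives about 1 in 20.

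For Cebpb and for Prox1, the difference between MCD and C mice had opposite signs before and after PH. They were flagged because at each time all 4 MCD arrays lay on one side of the C mean. How many of all genes meet this rule was not counted. By the sign of the mean alone Nr5a2 changed too, at 2.70 in C and 2.60 in MCD mice before PH and 2.65 and 2.92 after it. The difference between MCD and C mice was -0.43 before PH and 0.64 after it for Cebpb, 1.08 apart, and -0.44 and 0.50 for Prox1, 0.94 apart. Read over time, the same 4 group means gave -0.88 in C and 0.19 in MCD mice for Cebpb, and -0.35 and 0.59 for Prox1. The gaps of 1.08 and 0.94 must repeat in this form and are no second observation. By the sign of the mean alone, Foxa3, Cebpa, Onecut1 and Nr5a2 were also lower after PH in C mice and higher in MCD mice. These differences between times were not tested, since slide and group cannot be told apart in untreated mice after PH. Before PH, the diet difference in treated mice minus that in untreated mice was 1.28 for Cebpb and 1.33 for Prox1, and the interaction did not pass (adjusted p = 0.0638 and 0.118).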

How the results depend on the processing

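Of 2160 values of members under alternatives, 2067 stayed on their side of the threshold, 51 calls were lost, 39 gained and 3 reversed, and 34 of 126 results changed call under some alternative. The number of members called before PH in MCD against C was 2 and became 1 with normexp, 0 with median centring, 1 with the authors' values and 3 with only the arrays compared. For M+Fc-GLP-1 against C+Fc-GLP-1 before PH it was 1 and became 0 with normexp, the authors' values, no filter or only the arrays compared, and 2 with median centring. After PH, MCD against C went from 0 to 1 with normexp and the authors' values, and M+Fc-GLP-1 against C+Fc-GLP-1 from 1 to 0 with normexp, the authors' values and only the arrays compared. C+Fc-GLP-1 against C before PH went from 0 to 1 with normexp and the authors' values. M+Fc-GLP-1 against MCD before PH went from 1, Prox1, to 2 with normexp and the authors' values, but these were Foxa2 and Cebpb, and Prox1 was lost. With no filter it went to 2, Prox1 and Cebpb, and with median centring to 0. C after against before PH went from 2 to 1 with normexp and the mean of probes and to 0 with median centring, no filter, the percentile over probes above background on all arrays and only the arrays compared. With the authors' values it was again 2, but these were Hnf4a and Foxa3, both higher after PH. In that comparison 46.1% of all genes were called and the median of all genes moved by 0.60. MCD and C+Fc-GLP-1 mice over time each went from 0 to 4 with these values, all higher. There 41.3% and 38.3% of all genes were called and the median of all genes moved by 0.55 and 0.49. Over time with normexp, C+Fc-GLP-1 went to 2 and M+Fc-GLP-1 to 1. The cause was not tested.

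With the authors' values C after against before PH reversed for Hnf4a (0.96), Foxa2 (0.45) and Foxa3 (0.99), beside a median of 0.53 over all genes. Apoa2 in M+Fc-GLP-1 against MCD after PH reversed with normexp (-0.0012). Median centring moved the median of all genes by 0.37 in MCD against C before PH. Leaving out 1 array gave 1 to 2 members in MCD against C before PH, 0 to 4 in M+Fc-GLP-1 against C+Fc-GLP-1 before and 0 to 2 after PH, 0 to 2 in M+Fc-GLP-1 against MCD before PH, 0 to 1 in C after against before PH, 0 to 3 in C+Fc-GLP-1 after against before PH, 0 to 1 in the diet by Fc-GLP-1 interaction, and 0 in the other 7. Of 12 comparisons, 0 had every same-number correlation over 0.1, which does not settle whether replicate numbers pair the samples. A replicate block left the count of members called at 2 in MCD against C before PH and changed no other member count.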
